A study of Rattus norvegicus with 47 samples.

Results

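The comparison described here is the whole maturation step in isolation: isolation-reared Wistar rats at postnatal day 80 (Iso P80) set against isolation-reared Wistar rats at postnatal day 30 (Iso P30). Total RNA from the medial prefrontal cortex, a frontal region that takes part in executive and social behaviour, was hybridised to 1-colour Affymetrix arrays. The samples were chosen by their labels, that is by rearing and age, and by no measured value. They comprise 11 of the 46 samples of the series, 6 of Iso P80 and 5 of Iso P30, from 12 of its 47 arrays; arrays 3 and 4 of Iso P30 lay 0.116 log2 apart (root mean square), against 0.175 or more for any other pair within a group, differed by less than the noise between replicates and were counted as 1 sample. The comparison groups are isolation-reared rats at P40 (n = 5) and P60 (n = 6), and socially reared Wistar rats (Soc) at P30, P40, P60 and P80 (n = 6 each). Sex, litter, any drug and the number of animals behind an array are not given in the sources used here. Nor do the labels state that each array had an animal of its own, so p-values here cover the spread between arrays alone, and that spread may be technical.

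Between P30 and P80 the rat prefrontal cortex passes from the juvenile to the young adult state. Oligodendrocytes wrap axons in myelin and make much of its cholesterol locally, vessels and their basement membranes finish growing, and excitatory and inhibitory synapses are remodelled. Immediate early genes are switched on by neuronal activity within minutes, and interferon-stimulated genes by antiviral signalling through the transcription factors Irf7, Irf9 and Stat2.

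Levels are log2 signals as deposited, and differences are Iso P80 minus Iso P30 on the log2 scale with the standard error from limma. A probe set was called where limma's adjusted p (Benjamini-Hochberg over 12149 probe sets) was under 0.05. Every sample of the series had its nearest neighbour in its own group (46 of 46), and distances between Iso P80 and Iso P30 samples were 0.324 to 0.398, above those within Iso P80 (0.199 to 0.268) and within Iso P30 (0.218 to 0.263). The Iso P80 group mean lay nearest to that of Soc P60 (0.167), then to Iso P40 (0.239) and Soc P80 (0.263), and it was 0.287 from Iso P30. The groups are taken as the labels give them, every Iso P80 value rests on that label, and an exchange of labels was not tested. Over the 16 hybridisation spike-in probe sets, array 4 of Iso P80 was 4.05 to 4.56 away from its group, but 0.226 to 0.268 over the genes, and without it 5612 probe sets were called. The 3' to 5' signal ratio, which rises with RNA degradation or shorter labelled products, was 1.57 ± 0.0912 in Iso P80 and 1.34 ± 0.0642 in Iso P30 for Gapdh (SD, n = 6 and 5, exact two-sided permutation test, adjusted p = 0.00577 over 4 measures). For actin it was 4.28 ± 0.43 in Iso P80 and 2.44 ± 0.142 in Iso P30 (adjusted p = 0.00433 by the same exact test), and for hexokinase 3.32 in Iso P80 and 3.13 in Iso P30 (exact p = 0.548). The median linear signal of an array was 73.1 ± 0.542 in Iso P80 and 78.0 ± 1.32 in Iso P30 (adjusted p = 0.00433, exact permutation test). The smallest p that this exact test can give is 0.00216. Of the markers of cortical excitatory neurons, 21 of 25 measured genes passed the filter on low signals, among them Slc17a7, the vesicular glutamate transporter of cortex, with a median of 10.04 in Iso P80 and 10.19 in Iso P30, whereas 3 of 14 measured markers of choroid plexus did.

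Many genes differed by small amounts between Iso P80 and Iso P30. The Gapdh and actin ratios and the median signal differed between the same groups without overlap, so age and these measures cannot be fully told apart. Of the 12149 probe sets, 5851 (48.2%) were called, 3128 higher (25.7%) and 2723 lower (22.4%) at P80. The median size of a called difference was 0.308, and 309 probe sets (2.54%) were higher and 582 (4.79%) lower by over 0.5. At over 1.0, that is 2-fold, 8 were higher and 32 lower. In 3144 probe sets (25.9%) no Iso P80 sample overlapped an Iso P30 sample. With the Gapdh ratio of each sample as a covariate 5181 probe sets were called. Fewer cells of a type and less RNA per cell cannot be told apart in this bulk tissue.

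The shares called differed between gene lists. Interferon-response and antigen-presentation genes and immediate early genes rose, while genes of myelin, cholesterol synthesis, collagen and basement membrane, and endothelium fell. Counts below are over genes, each through its brightest kept probe set. Over all 7898 genes taken that way, 26.7% were higher and 19.6% lower, with a median difference of 0.02.

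**Figure D1:**
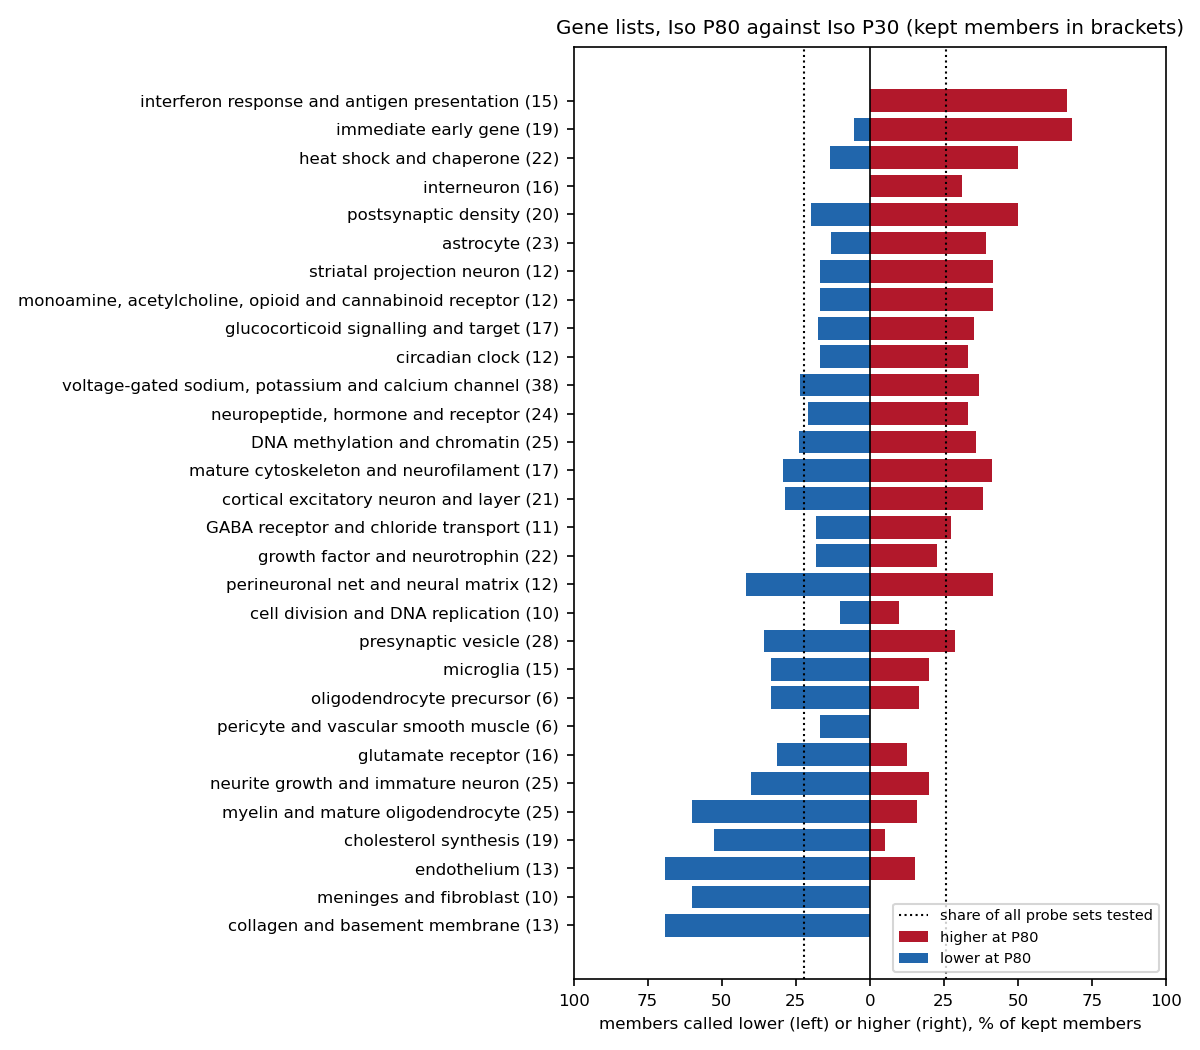
Share of the kept members of each gene list with at least 6 of them that was called lower (blue, to the left) or higher (red, to the right) in Iso P80 against Iso P30; dotted lines mark the shares over all probe sets tested, 22.4% lower and 25.7% higher. Interferon and immediate early genes lie at the top with 66.7% and 68.4% higher, and collagen and endothelium at the bottom with 69.2% lower each.

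Interferon-response genes rose together in isolation. Of the 15 kept members of 30 measured, 10 rose and none fell, with a median difference of 0.57. The 5 others, Irf3, Stat2, RT1-T24-4, Bst2 and Parp14, were not called. In social rearing 1 of the 15 rose and 7 fell. There, 49.7% of all probe sets were called between P80 and P30 (26.2% higher and 23.5% lower). The mean level of the list was 6.95 to 7.00 in Iso P80, against 6.33 to 6.56 in Iso P30, with no overlap. In isolation the list mean was 6.47 at P30, 6.48 at P40, 6.52 at P60 and 6.98 at P80, so the difference appeared after P60. In social rearing it was 6.56 at P30, 7.42 at P40, 6.55 at P60 and 6.30 at P80.

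Irf7, the regulator that amplifies interferon production, had a lowest, median and highest signal of 6.72, 6.89 and 7.15 in Iso P80, against 5.44, 5.53, 5.54, 5.62 and 5.75 in Iso P30. All Iso P80 samples lay above all Iso P30 samples, a difference of 1.34 ± 0.09, or 2.53-fold (limma adjusted p = 1.89e-17). Irf9, a transcription factor of the interferon response, had 6.56, 6.61 and 6.73 in Iso P80, against 5.50, 5.54, 5.67, 5.95 and 5.97 in Iso P30, again without overlap (0.91 ± 0.11). Ifi27, which encodes a mitochondrial interferon-induced protein, stood at 10.40, 10.48 and 10.58 in Iso P80 against 9.43, 9.47, 9.53, 9.53 and 9.58 in Iso P30 (0.98 ± 0.04, adjusted p = 2.93e-26 in limma). RT1-S3, a class I histocompatibility gene, stood at 6.54, 6.89 and 7.13 in Iso P80 and at 5.71, 5.78, 5.92, 6.07 and 6.08 in Iso P30 (0.94 ± 0.09). RT1-T24-3, of the same class, rose by 0.80 ± 0.10, and probe sets of these histocompatibility genes may share signal with near-identical copies. Lgals3bp, a secreted glycoprotein gene, rose by 0.88 ± 0.14 and Isg15, a ubiquitin-like modifier, by 0.59 ± 0.18. None of these had overlapping groups. Over all samples Isg15 (5.73) and Lgals3bp (5.78) lay just above the filter limit of 5.72. Both had group means over that limit in Iso P80 and Soc P40 alone. Their place among the kept members thus rests on groups where they were high, and their other levels are near the floor. Both are counted among the 10 members that rose, so their part in that count was partly fixed by the filter.

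The promoters of these genes are shown because the group moved together and interferon factors bind a known element, the interferon-stimulated response element. The 250 bases before the start of each gene (RefSeq, GRCr8) were searched for its core, GAAA followed after any 2 bases by GAAA, on both strands, so that a match on the other strand reads TTTC, any 2 bases and TTTC in print. Of the 15 kept members, 13 had a promoter in the RefSeq table and 8 of these held the core, against 3.41% of 33469 promoters of the table. Among the 8 that rose and had a promoter, 6 held it. The list was drawn up as interferon-response genes, so a share above that of all promoters was largely fixed beforehand. The stretches below run 5′ to 3′ on the gene's own strand, with 25 bases on each side of the outermost matches, and capitals mark every match of the core.
Irf7, chr1:205800058-205800117, minus strand: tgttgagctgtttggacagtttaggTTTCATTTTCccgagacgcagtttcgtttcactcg
Ifi27, chr6:128355118-128355262, plus strand: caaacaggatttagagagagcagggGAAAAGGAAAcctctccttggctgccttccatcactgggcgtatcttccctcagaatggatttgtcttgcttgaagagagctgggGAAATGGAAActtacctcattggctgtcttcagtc
Rsad2, chr6:48788233-48788292, minus strand: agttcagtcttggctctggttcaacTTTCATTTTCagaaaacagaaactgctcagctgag
B2m, chr3:129549155-129549214, plus strand: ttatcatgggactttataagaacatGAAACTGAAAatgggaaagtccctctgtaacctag
RT1-S3, chr20:2675391-2675450, plus strand: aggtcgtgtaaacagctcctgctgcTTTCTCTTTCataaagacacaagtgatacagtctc
Lgals3bp, chr10:104127864-104127923, minus strand: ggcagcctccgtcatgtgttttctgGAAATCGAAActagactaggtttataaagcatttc
The match begins 69 bases before the start in Irf7 and 50 bases before it in Lgals3bp, and Ifi27 holds 2 matches. Bst2 and Parp14, which were not called, held the core as well, and Irf9 and RT1-T24-3, which rose, did not hold these letters in the window. A match is a description of the letters and says nothing of binding.

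Immediate early genes, which report recent neuronal activity, were another group that rose. Of the 19 kept members of 32 measured, 13 rose and 1 fell, with a median of 0.26. Their mean level was 7.78 to 7.82 in Iso P80, against 7.50 to 7.57 in Iso P30, with no overlap. Fos, a component of the AP-1 transcription factor, had 7.11, 7.23 and 7.33 in Iso P80, against 5.97, 6.05, 6.17, 6.28 and 6.50 in Iso P30, with all Iso P80 samples higher (1.04 ± 0.10, adjusted p = 2.20e-12 in limma). Egr2, a zinc-finger factor, had 6.48, 6.74 and 6.75 in Iso P80, against 5.77, 5.84, 5.91, 6.07 and 6.19 in Iso P30 (0.73 ± 0.07). Arc, which controls the removal of AMPA receptors from synapses, stood at 7.90, 7.96 and 7.97 in Iso P80 and at 7.46, 7.57, 7.59, 7.61 and 7.67 in Iso P30 (0.37 ± 0.04). The groups did not overlap in any of these genes. Egr1, a related zinc-finger factor, rose by 0.40 ± 0.03 (0.26 under quantile normalization), and Dusp1, a phosphatase that shuts off MAP kinases and is also a glucocorticoid target, by 0.53 ± 0.07. The course was not even: the list mean in isolation was 7.54 at P30, 7.80 at P40, 7.60 at P60 and 7.80 at P80. In social rearing it was 8.17 at P30, 8.21 at P40, 8.29 at P60 and 8.01 at P80, so that the Iso P80 mean (7.80) still lay below the Soc P80 mean (8.01).

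**Figure D2:**
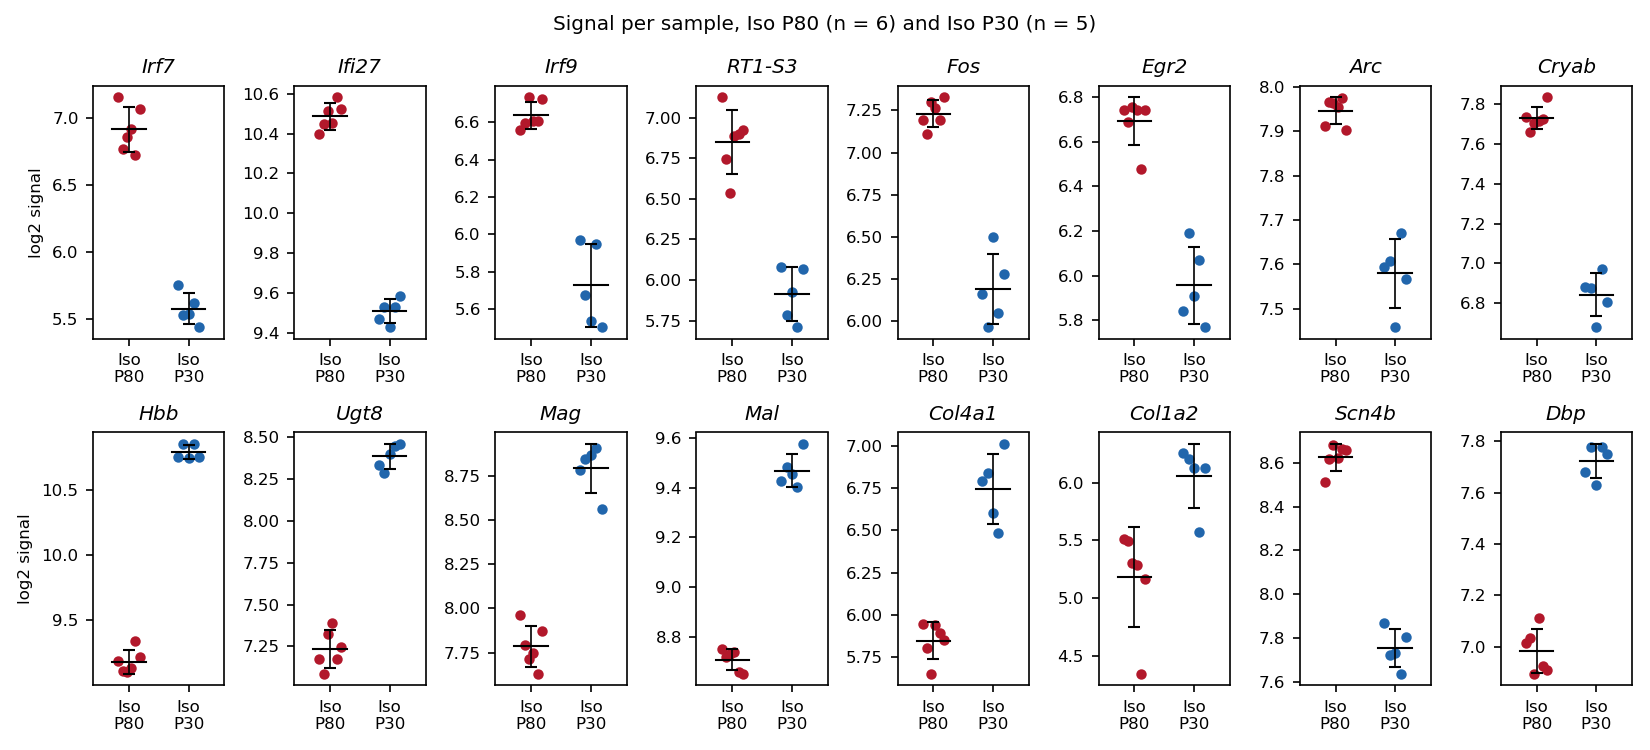
Log2 signal in every sample of Iso P80 (left, red, n = 6) and Iso P30 (right, blue, n = 5) for 16 genes, each panel with its own axis; lines and bars are mean and SD. The groups are apart in every panel, with the first 8 genes and Scn4b higher in Iso P80 and Hbb, Ugt8, Mag, Mal, Col4a1, Col1a2 and Dbp lower.

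Of all lists, myelin had the highest number of members called lower. By share (60%) it stood below collagen and endothelium (69.2% each), among lists with at least 6 kept members. Of the 25 kept members of 27 measured, 15 fell and 4 rose, with a median of -0.26. The mean of the list was 8.50 to 8.56 in Iso P80, against 8.75 to 8.81 in Iso P30, without overlap. Ugt8, the enzyme that makes galactosylceramide for the myelin membrane, had 7.09, 7.21 and 7.39 in Iso P80, against 8.29, 8.33, 8.40, 8.45 and 8.46 in Iso P30 (-1.15 ± 0.08, adjusted p = 4.58e-17 in limma). Mag, an adhesion protein of the inner myelin layer, had 7.63, 7.77 and 7.96 in Iso P80, against 8.56, 8.78, 8.85, 8.87 and 8.91 in Iso P30 (-1.01 ± 0.06). Mal, a proteolipid that sorts myelin membrane, had 8.65, 8.72 and 8.75 in Iso P80, against 9.40, 9.43, 9.45, 9.48 and 9.57 in Iso P30 (-0.76 ± 0.04). For each of these genes every Iso P80 sample lay below every Iso P30 sample. Mog, on the outermost myelin layer, fell by 0.65 on the log2 scale (SE 0.05) and Sirt2, a deacetylase abundant in myelin, by 0.61 (SE 0.05).

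The myelin group was not uniform. Cryab, a small heat shock protein that oligodendrocytes also make, rose by 0.88 ± 0.08, with 7.66, 7.72 and 7.83 in Iso P80 against 6.68, 6.81, 6.88, 6.88 and 6.97 in Iso P30. Mbp, the main protein of compact myelin, was named after its values were seen: its brightest probe set differed by 0.02 ± 0.08 and was not called. Cldn11, a tight junction protein of myelin, and Mobp, a compact myelin protein, were each lower on a dimmer probe set (-1.32 ± 0.11 and -1.27 ± 0.05) but not called on their brightest. In isolation the list mean was 8.78 at P30, 8.53 at P40, 8.58 at P60 and 8.53 at P80, so nearly all of the difference was present at P40. Of 6 kept genes of oligodendrocyte precursors 1 rose and 2 fell, among them Olig1, a lineage factor (-0.32 ± 0.03).

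Cholesterol synthesis genes also fell. Of 19 kept members of 20 measured, 10 fell and 1 rose, with a median of -0.18 (6 fell with the Gapdh ratio as a covariate), and the list mean was 7.68 to 7.79 in Iso P80, against 7.88 to 7.96 in Iso P30, without overlap. Fdps, the farnesyl diphosphate synthase, had 8.26, 8.38 and 8.40 in Iso P80, against 8.67, 8.78, 8.88, 8.91 and 9.03 in Iso P30 (-0.50 ± 0.04). Fdft1, the squalene synthase, fell by 0.37 (SE 0.05) and Sqle, the squalene epoxidase, by 0.41 (SE 0.07). Sc5d, a late desaturase, was the member that rose (0.21 ± 0.05, but 0.14 under quantile normalization and 0.33 with the Gapdh ratio as a covariate), and another of its probe sets was called lower. This list declined evenly with age in isolation, at 7.92, 7.89, 7.80 and 7.74 at P30, P40, P60 and P80, and in social rearing at 7.98, 7.88, 7.80 and 7.68.

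Genes of vessels and connective tissue fell as well. Of the 13 kept collagen and basement membrane genes of 19 measured, 9 fell and none rose, with a median of -0.38. Their mean was 6.0 to 6.18 in Iso P80, against 6.45 to 6.64 in Iso P30, without overlap. Col4a1, the chief collagen of vessel basement membranes, had 5.65, 5.87 and 5.94 in Iso P80, against 6.48, 6.60, 6.79, 6.84 and 7.01 in Iso P30 (-0.90 ± 0.11). Serpinh1, the collagen chaperone, fell by 0.78 (SE 0.11, and -0.45 with the Gapdh ratio as a covariate). The fibrillar collagens Col1a2 and Col3a1 fell by 0.88 (SE 0.15) and 0.74 (SE 0.09). Their Iso P80 means (5.18 and 5.50) lay below the filter limit of 5.72, and their Iso P30 means (6.06 and 6.24) above it. In both rearings their group means were over that limit at P30 and P40 alone. Their P80 levels are thus near the floor, and their part in the count of 9 was partly fixed by the filter. The fall lay between P40 and P60, with list means of 6.55, 6.53, 6.15 and 6.09 at P30, P40, P60 and P80. Of 13 kept endothelial markers of 16 measured, 9 fell and 2 rose, and 5 fell with the Gapdh ratio as a covariate. Tfrc, the transferrin receptor that carries iron across brain vessels, fell by 0.25 (SE 0.04), while Slco1a4, an organic anion carrier of brain vessels, rose by 0.70 ± 0.04 and Tek, the angiopoietin receptor, by 0.46 ± 0.10.

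Markers of tissue next to the cortex moved the same way. Of 10 kept markers of meninges and fibroblasts, 6 fell and none rose. The mean of that list was 6.55 to 6.77 in Iso P80 and 6.90 to 7.06 in Iso P30. Col1a2 and Col3a1 belong to that list as well, and their part in its count was likewise partly fixed by the filter. All 3 kept choroid plexus markers, Ttr, Enpp2 and Igfbp2, were lower, with a list mean of 7.11 to 7.19 in Iso P80 and 7.54 to 7.76 in Iso P30. Enpp2 belongs to the myelin list as well and Igfbp2 to that of meninges, so Ttr alone is counted for plexus only. Hbb, the beta chain of haemoglobin and the kept marker of blood, had 9.10, 9.16 and 9.34 in Iso P80, against 10.75, 10.75, 10.75, 10.85 and 10.85 in Iso P30 (-1.61 ± 0.05, 3.06-fold lower, adjusted p = 2.75e-30 in limma). Its mean in isolation was 10.79 at P30, 10.63 at P40, 10.11 at P60 and 9.18 at P80. The part of meninges, plexus and blood in the falls of the collagen, endothelial and myelin lists was not tested.

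**Figure D3:**
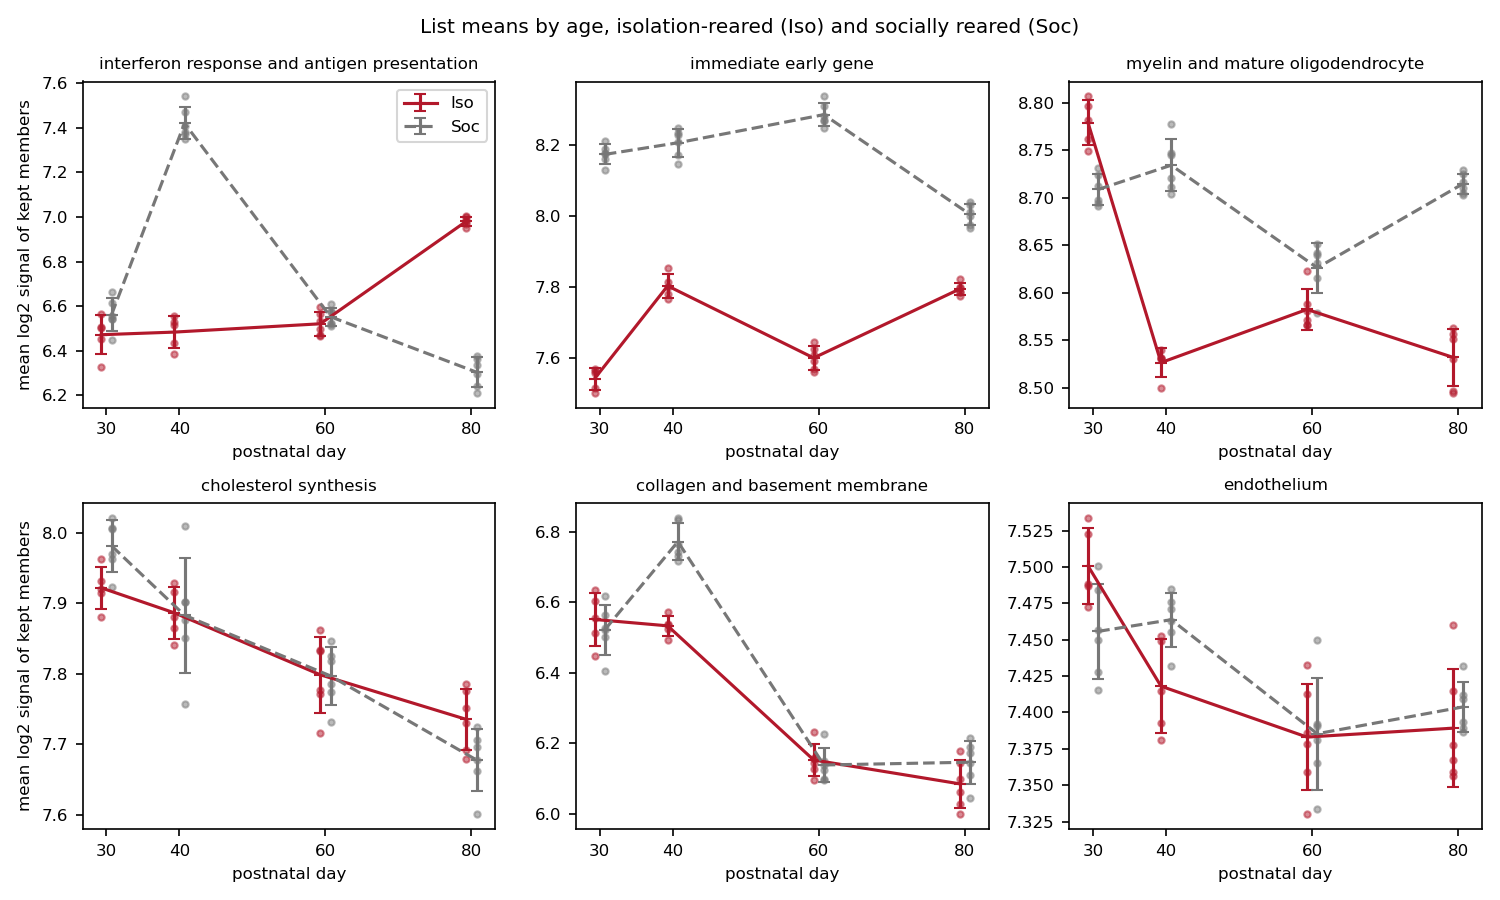
Mean log2 signal of the kept members of 6 lists at postnatal days 30, 40, 60 and 80 in isolation-reared (red, solid) and socially reared (grey, dashed) rats; points are samples, bars mean and SD. In isolation the interferon list stays at 6.47 to 6.52 up to P60 and stands at 6.98 at P80, the myelin list drops by P40, collagen between P40 and P60, and cholesterol synthesis declines throughout.

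Genes of synapses and excitability moved in both directions within each list. Among 20 kept postsynaptic density genes 10 rose and 4 fell, but under quantile normalization 6 rose and 7 fell, and their median of 0.07 turned to -0.02. Shank1, a scaffold of the postsynaptic density, rose by 0.44 ± 0.04. Of 28 kept presynaptic vesicle genes 8 rose and 10 fell, with a median of 0.04 that turned to -0.08 under quantile normalization and with the covariate. Sv2b, a vesicle glycoprotein, rose by 0.66 ± 0.07 on its brightest probe set and was called lower on another. Syt1, the calcium sensor of fast release, had 7.13, 7.22 and 7.30 in Iso P80, against 8.04, 8.16, 8.18, 8.29 and 8.39 in Iso P30 (-0.99 ± 0.06), without overlap. Rims1, an active-zone scaffold, fell by 0.72 (SE 0.07).

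Glutamate receptor genes were called lower in 5 and higher in 2 of 16. The falls included AMPA receptor auxiliary subunits, Cacng3 (-0.66 ± 0.07) and Cnih2 (-0.45 ± 0.05), and the rises included the AMPA receptor subunit Gria2 (0.29 ± 0.05, 0.16 under quantile normalization). Among 16 kept interneuron genes 5 rose and none fell, although their median of 0.06 turned to -0.02 under quantile normalization. Gad1, which makes GABA, had 10.51, 10.62 and 10.70 in Iso P80, against 10.16, 10.17, 10.17, 10.26 and 10.27 in Iso P30 (0.41 ± 0.03, 0.25 under quantile normalization). Kcnc2, a potassium channel subunit of fast-spiking cells, rose by 0.42 ± 0.06. Pvalb, which marks those cells and was named after its values were seen, differed by -0.15 ± 0.10 and was not called.

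Of 38 kept voltage-gated channel genes 14 rose and 9 fell. Scn4b, a sodium channel beta subunit, had 8.51, 8.64 and 8.68 in Iso P80, against 7.64, 7.72, 7.73, 7.80 and 7.87 in Iso P30 (0.87 ± 0.05), without overlap. Scn1a and Kcna2, axonal sodium and potassium channels, rose by 0.35 ± 0.05 and 0.36 ± 0.05. Kcnip3, a calcium-binding regulator of potassium channels, fell by 0.63 (SE 0.08). Of 24 kept neuropeptide genes 8 rose and 5 fell, and the opioid precursors Penk and Pdyn rose by 0.34 ± 0.06 and 0.77 ± 0.20. Both belong also to the list of striatal projection neurons, of which 5 of 12 kept members rose and 2 fell; the share of striatal tissue in these samples was not tested. Maob, the monoamine oxidase of astrocytes, rose by 0.63 ± 0.04.

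Of 25 kept growth-related genes of young neurons 10 fell and 5 rose, with a median of -0.08, and 2 rose with the Gapdh ratio as a covariate. Marcksl1, an actin regulator, fell by 0.49 (SE 0.05) and Cd24, a surface protein of immature neurons, by 0.57 (SE 0.06), whereas Tubb2b, a tubulin of growing neurites, rose by 0.36 ± 0.04. Chaperone genes rose in 11 and fell in 3 of 22. Hspa5, the main chaperone of the endoplasmic reticulum, had 10.24, 10.32 and 10.46 in Iso P80, against 9.65, 9.72, 9.75, 9.76 and 9.78 in Iso P30 (0.60 ± 0.05). Hyou1, another chaperone of that compartment, went the other way, with 3.47, 5.45 and 5.93 in Iso P80 against 6.13, 6.26, 6.29, 6.43 and 6.52 in Iso P30 (-1.20 ± 0.28); 1 Iso P80 sample at 3.47 lay well below the rest.

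Glial and clock genes moved in both directions. Of 23 kept astrocyte markers 9 rose and 3 fell, with a median of 0.03, but 4 rose and 8 fell under quantile normalization; Gjb6, a gap junction protein, rose by 0.46 ± 0.07. Of 15 kept microglial markers 3 rose and 5 fell: Csf1r, the receptor that keeps microglia alive, fell by 0.49 (SE 0.06) and Aif1 by 0.66 (SE 0.09), while Ctss, a lysosomal protease, rose by 0.48 ± 0.07 (0.32 under quantile normalization). Dbp, an output factor of the circadian clock, had 6.89, 6.97 and 7.11 in Iso P80, against 7.63, 7.68, 7.75, 7.78 and 7.78 in Iso P30 (-0.74 ± 0.06), and Per2, a core clock repressor, rose by 0.33 ± 0.06. The time of day of dissection is not given in the sources used here. Nr3c1, the glucocorticoid receptor, rose by 0.21 ± 0.06.

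Among all named genes the largest rises besides Irf7 and Fos were those of Ankrd13d (1.47 ± 0.35) and Aff1, a transcription elongation factor (1.17 ± 0.19). Ankrd13d had 5.97, 6.21 and 6.80 in Iso P80, against 3.83, 4.45, 4.73, 5.37 and 5.93 in Iso P30, a wide spread at low signal, and a brighter probe set of Ankrd13d differed by 0.03 ± 0.07 and was not called. Among the largest falls, besides that of Hbb given above, were those of single probe sets of Kif5c, a kinesin motor (-1.68 ± 0.12), and App, the amyloid precursor protein (-1.57 ± 0.09, while its brightest probe set differed by 0.13 ± 0.07 and was not called). The Kif5c probe set had 4.98, 5.35 and 5.69 in Iso P80, against 6.84, 6.88, 7.05, 7.07 and 7.16 in Iso P30, but a brighter probe set of the same gene differed by -0.23 ± 0.05. Probe sets of a gene often disagreed: of 515 genes with at least 2 called probe sets, 302 were called in both directions and 213 in 1. Klc1, a kinesin light chain, Canx, a membrane chaperone, and Slc1a3, a glial glutamate transporter, were lower by 1.24 (SE 0.06), 1.20 (SE 0.15) and 1.10 (SE 0.07) on 1 probe set each, and each had another that was called higher.

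**Figure D4:**
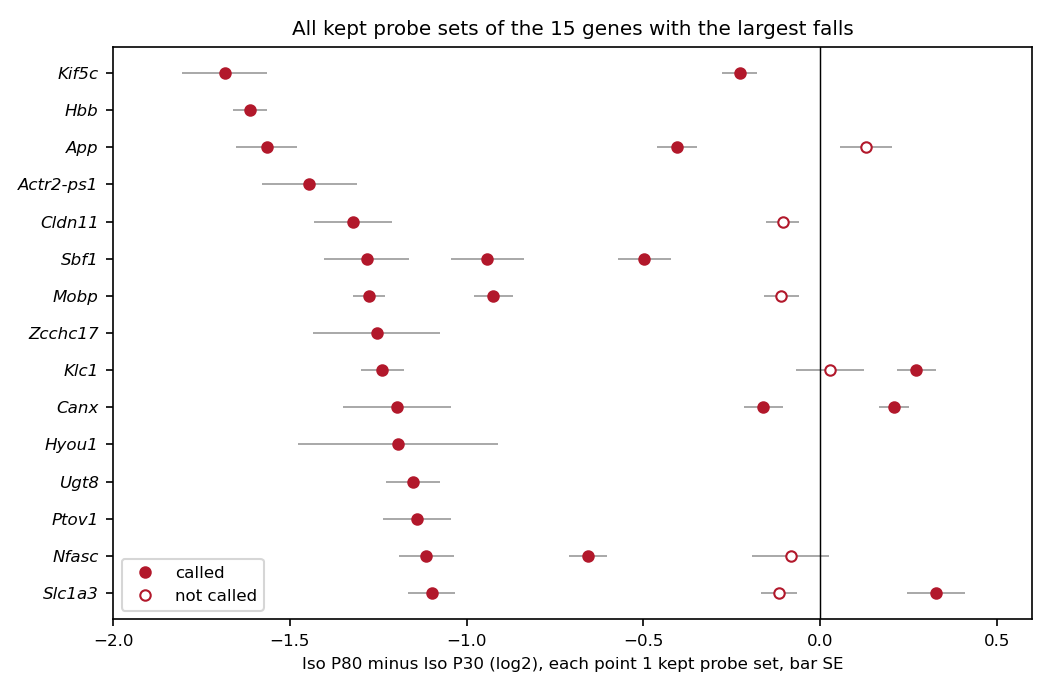
Difference Iso P80 minus Iso P30 (log2, bars SE) for every kept probe set of the 15 genes with the largest falls; filled points were called, open points not. In Klc1, Canx and Slc1a3 another probe set was called higher, and in Cldn11 and Mobp another was not called.

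The ages between were not a steady path. For the 309 probe sets higher by over 0.5, median levels in isolation were 6.92 at P30, 7.20 at P40, 7.10 at P60 and 7.54 at P80, and 28.2% went in age order. For the 582 lower by over 0.5 they were 6.83 at P30, 6.39 at P40, 6.72 at P60 and 6.19 at P80, and 18.7% went in age order. At P40 the lower set showed 64.7% of its difference and at P60 18.4%, so that 71.8% of its probe sets stood closer to P30 at P60 than at P40. These shares rest on the same P30 and P80 samples that chose the probe sets and are given as a description. Syt1 showed the pattern, with means in isolation of 6.87 at P40 and 8.32 at P60, outside both end ages. Rab6a, a Golgi transport GTPase, had 7.11, 7.21 and 7.27 in Iso P80, against 7.92, 7.95, 8.05, 8.07 and 8.13 in Iso P30, and means of 6.63 at P40 and 8.18 at P60; another of its probe sets was called higher at P80. The Gapdh 3' to 5' ratio had group means in isolation of 1.34, 1.87, 1.36 and 1.57 at P30, P40, P60 and P80, back near its P30 value at P60. The actin ratio had 2.44, 4.20, 3.94 and 4.28 and did not return, and the part of either ratio in this pattern was not tested.

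Whether the age difference differs between the rearing groups is addressed by the contrast of the age difference in isolation minus that in social rearing. It was called in 3638 probe sets (29.9%), 1959 positive and 1679 negative. Of the 5851 probe sets called in isolation, 50.0% were called in the same direction in social rearing, as were 48.4% of the 6044 called there. A further 556 were called in opposite directions. The contrast was called for all 556, but this was largely fixed beforehand, because differences of opposite sign add up in the contrast. It is therefore no separate evidence that the age difference depends on rearing. For 2329 of the calls in isolation (39.8%) the contrast was called. The Gapdh ratio had group means of 1.52 in Soc P30 and 1.89 in Soc P80, and the actin ratio 3.50 and 4.97. With the Gapdh ratio as a covariate 3728 contrasts were called, and the part of the actin ratio was not tested. Rearing and such differences between groups of arrays cannot be fully told apart.

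The contrast was positive for 10 of the 15 interferon genes and negative for none, against 16.1% positive over all probe sets. Isg15 and Lgals3bp are among these 10, and both passed the filter through Iso P80 and Soc P40 alone. Their part in this count was thus partly fixed by the filter, and no count without them was made. The list counts take the brightest probe set of each gene, and no share of contrasts was computed that way over all genes. Irf7 differed by 1.34 ± 0.09 in isolation and by -0.76 in social rearing (contrast 2.09, adjusted p = 1.20e-18 in limma). Isg15 differed by 0.59 in isolation and -1.23 in social rearing (contrast 1.82), at low signal and kept through Iso P80 and Soc P40 alone. For immediate early genes 9 of 19 contrasts were positive and none negative, with Arc at 0.37 in isolation and -0.74 in social rearing (contrast 1.11) and Egr2 at 0.73 in isolation and -0.32 in social rearing (contrast 1.05). Each of these genes was thus above its P30 level at P80 in isolation and below it in social rearing, with both differences called.

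Myelin genes gave 13 negative contrasts of 25 and no positive one, against 13.8% negative over all probe sets, again not taken by 1 probe set per gene. Mag differed by -1.01 in isolation and -0.48 in social rearing (contrast -0.53), Mal by -0.76 in isolation and -0.27 in social rearing (contrast -0.50), and Mog by -0.65 in isolation and -0.12 in social rearing (contrast -0.53). Ugt8 fell by nearly the same amount in both rearings (-1.15 in isolation and -1.14 in social rearing; contrast -0.01 ± 0.10, not called). The list mean was 8.53 in Iso P80 and 8.71 in Soc P80, and at P30 it was 8.78 in isolation and 8.71 in social rearing. Collagen genes gave 1 positive contrast and no negative one of 13; Col4a1 differed by -0.90 in isolation and -0.91 in social rearing. Cholesterol synthesis genes gave 9 positive and 2 negative contrasts of 19, with a median difference of -0.18 in isolation and -0.36 in social rearing. Astrocyte markers gave 13 positive contrasts of 23 and no negative one, but 3 of each sign under quantile normalization, whereas that scaling gave 11 positive and no negative for interferon genes and 17 negative and no positive for myelin genes.

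The largest positive contrast was that of Ttr, the thyroid hormone carrier made by choroid plexus (3.24, adjusted p = 3.1e-22 in limma), with differences of -0.72 in isolation and -3.96 in social rearing. Ttr had 5.43, 5.94 and 6.15 in Iso P80, against 6.19, 6.40, 6.68, 6.80 and 6.84 in Iso P30. Its group mean was 9.70 in Soc P30 and 8.01 in Iso P40, and 5.73 to 6.58 in the other groups. The Ttr contrast thus rests mainly on the high Soc P30 level, and the part of choroid plexus tissue in it was not tested. Among the largest negative contrasts were those of Anp32a, a nuclear phosphoprotein (-2.19), Hyou1 (-1.72), Pacsin1, an endocytic adaptor of synapses (-1.60), and Vdac1, the main channel of the outer mitochondrial membrane (-1.46). The Vdac1 probe set had 6.74, 7.01 and 7.18 in Iso P80, against 7.95, 7.96, 7.99, 8.0 and 8.03 in Iso P30, without overlap, and differed by -1.0 in isolation and 0.46 in social rearing, but a brighter probe set of Vdac1 differed by 0.09 ± 0.04 in isolation and was not called. Anp32a overlapped between Iso P80 and Iso P30 (-0.37 ± 0.10) and differed by 1.82 in social rearing.

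**Figure D5:**
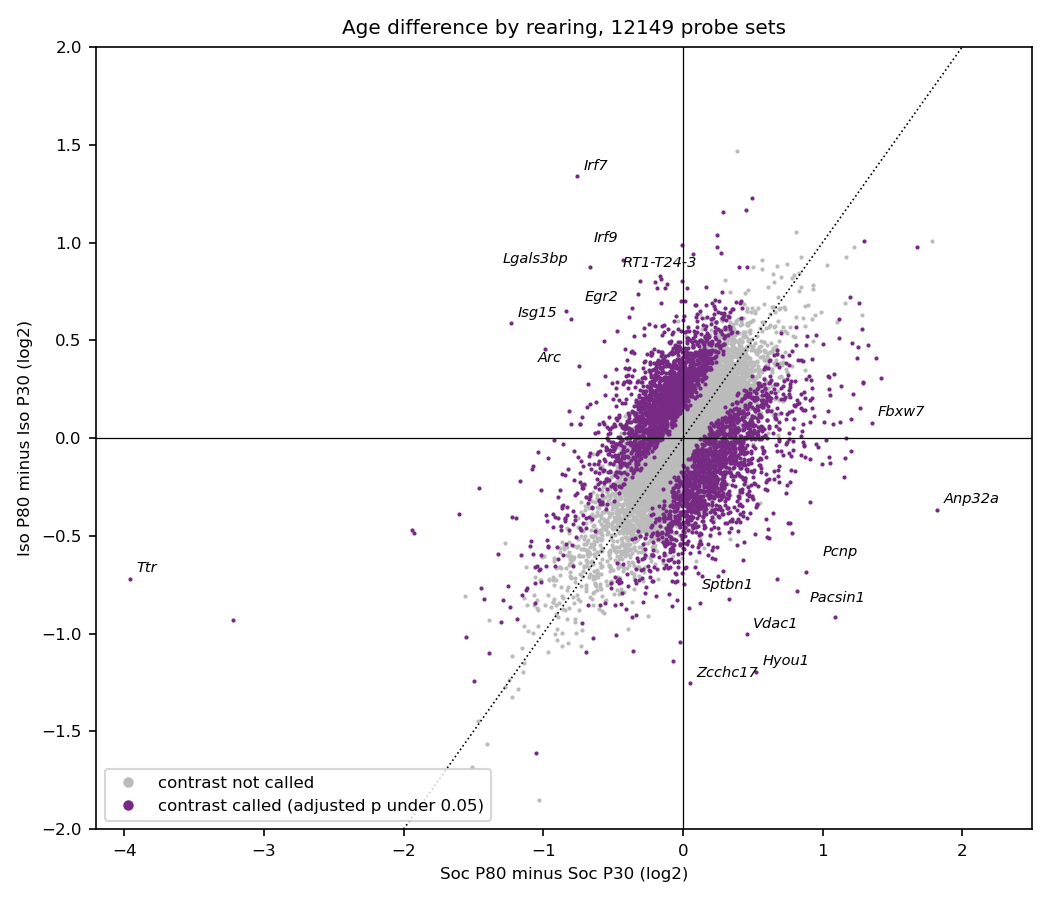
Age difference (P80 minus P30, log2) in isolation (vertical) against that in social rearing (horizontal) for 12149 probe sets; purple points had the contrast called, and the dotted line marks equal differences. Interferon and immediate early genes such as Irf7 (1.34 and -0.76), Isg15 and Arc lie above the line, Ttr far to the left, and Hyou1, Vdac1 and Anp32a below it.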

How the data were processed

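Biotin-labelled target made from 7 ug of total RNA of medial prefrontal cortex was measured on Affymetrix arrays of 1 colour, per the labels' protocols. The deposited values are log2 signals that the authors made with MAS5, per the submitters' processing notes; its version and scaling target are not given in the sources used here. Trimmed means (2% off each end) were 156.6 to 161.4 on the linear scale, so no further normalization was applied. The authors' deposited table of filtering criteria was read but gave no result.

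Of 20304 probe sets on 47 arrays, 20249 were no controls, and those with a mean log2 signal of at least the 40th percentile (5.72) were kept, 12149 in all. Symbols came from the platform annotation: 14607 probe sets had 1 symbol, 326 several (not named) and 5316 none, and 14567 matched the GRCr8 gene table. Promoters came from RefSeq on GRCr8.

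Arrays 3 and 4 of Iso P30 were averaged. limma 3.58.1 (R 4.3.3; lmFit, eBayes with trend) fitted 8 group means over 46 samples with 38 residual degrees of freedom, after tests on simulated data. The contrasts were Iso P80 minus Iso P30, Soc P80 minus Soc P30, and their difference. Adjusted p is Benjamini-Hochberg within a contrast, with a threshold of 0.05. 3' to 5' ratios were compared by exact permutation tests. The number of arrays limits the precision.

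Genes were named by rule: the 15 largest rises and falls, the 8 largest contrasts of each sign, 8 whose P40 and P60 levels lay outside both end ages, and up to 6 per list by smallest p. The 23 gene lists and 9 marker lists (913 entries), like the comparison itself, were chosen with earlier results of these data known. A list member is its brightest kept probe set. The alternatives were quantile normalization, median centring, array weights, no filter and a stricter one, the Gapdh ratio as a covariate, only the end ages in the fit, a test of differences beyond 0.2, all arrays apart with and without the replicate number as a block, and each sample left out.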

Additional observations from a re-analysis of the deposited data

Results flagged for a closer look

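The search for outlying samples covered 180 groups of samples, over the named genes, the spike-in mean and the array quality measures. In 15 of them, all of named genes, 1 sample lay far from the others of its group. Chance gives about 1 in 20 groups. Among Iso P80 samples, replicate 5 was low in Egr2 (log2 signal 6.48, group median 6.74), Col1a2 (4.34, median 5.29) and Tfrc (8.77, median 8.93). Replicate 1 of Iso P80 was high in Mog (7.98, median 7.71) and low in Scn4b (8.51, median 8.64). Replicate 3 of Iso P80 was high in Col3a1 (5.70, median 5.47), and replicate 4 was low in Tek (7.11, median 7.36). Among Iso P30 samples, replicate 1 was low in Olig1 (9.83, median 9.90), Sqle (7.82, median 8.08) and Slco1a4 (8.53, median 8.63). Replicate 5 of Iso P30 was low in Col1a2 (5.58, median 6.13) and Tek (6.47, median 6.97). Replicate 6 of Iso P30 was high in Per2 (7.50, median 7.27) and Ina (9.33, median 9.29), and replicate 2 was high in Canx (7.21, median 6.70).

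The limma contrast of the age difference in isolation minus that in social rearing was called in 3638 probe sets. Those of 55 named genes were among them, and rearing and array quality cannot be fully told apart here. Besides the interferon genes Irf7 (2.09), Isg15 (1.82), Lgals3bp (1.54), Irf9 (1.34), RT1-T24-3 (1.11), RT1-S3 (0.87) and Ifi27 (0.74), the contrast was positive for the activity-dependent genes Arc (1.11), Egr2 (1.05), Dusp1 (0.81), Fos (0.80) and Egr1 (0.54). It was positive as well for Ttr (3.24, resting mainly on its high Soc P30 level), Pdyn (0.95), Aff1 (0.72), Ctss (0.58), Maob (0.53), Tubb2b (0.53), Sptb (0.48), Rab6a (0.46), Gad1 (0.44), Per2 (0.42), Scn4b (0.41) and Ntrk2 (0.41). Smaller positive values were those of Ina (0.33), Kcnc2 (0.33), Slco1a4 (0.32), Sv2b (0.31), Hspa5 (0.30), Slc1a3 (0.29), Ptprz1 (0.28), Kat2b (0.28), Penk (0.27), Sc5d (0.23), Smarca2 (0.19) and Shank1 (0.16). It was negative for the myelin genes Mag (-0.53), Mog (-0.53), Mal (-0.50) and Sirt2 (-0.28) and the microglial genes Aif1 (-0.75) and Csf1r (-0.27). It was negative also for Anp32a (-2.19), Hyou1 (-1.72), Pacsin1 (-1.60), Vdac1 (-1.46), Kif5c (-1.0 on its brighter probe set, and -0.18 and not called on the dimmer one described above), Hbb (-0.56), Kcnip3 (-0.52), Igfbp5 (-0.43), Tfrc (-0.32), Dbp (-0.23), Kcna2 (-0.22), Cnih2 (-0.22) and Fdps (-0.19).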

How the results depend on the processing

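Of the 2131 values that the alternatives gave for 97 results on named genes, 2121 kept their direction and their side of the threshold, and none reversed. Most of these genes were chosen for large differences or small p in the same data, so such steadiness was largely fixed beforehand. The other 10 values were calls lost when the difference itself had to exceed 0.2, among them Isg15, Anp32a, Penk, Nr3c1 and Per2. That test called 1625 probe sets, 810 higher and 815 lower. Without a filter on signal 4116 probe sets were lower, 1801 of them by over 0.5 and 510 higher by over 0.5, and 845 contrasts were under -0.5; with the filter at the 60th percentile these were 1743 lower, 234 lower by over 0.5 and 211 contrasts under -0.5. Over all probe sets more calls were lost. With the Gapdh ratio as a covariate 637 were higher by over 0.5 and 5181 were called. Those included 4457 of the 5851 reported calls, 4455 of them in the same direction. Quantile normalization called 5693, which included 4838 of the 5851 reported calls. Leaving out 1 sample at a time gave 5413 to 5765 called, 2864 to 3086 higher and 2517 to 2679 lower, 295 to 360 higher and 567 to 622 lower by over 0.5. The contrast then gave 3401 to 3619 called. Of 192 counts over list members, 35 moved by over 1.5 times. The causes were not tested, except that the filters change which probe sets are tested. With the replicate number as a replicate block over all 47 arrays 6068 were called, and 6066 without it; correlations of same-numbered samples were -0.154 to 0.087, and 1 sample correlated best with its own number. Low signal limits genes such as Ankrd13d and Hyou1, whose samples spread widely, and Isg15, Lgals3bp, Aff1 and Col1a2, which barely passed the filter.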

Other observations

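Over all 7898 genes taken by their brightest kept probe set, 26.7% were higher and 19.6% lower in Iso P80 than in Iso P30, which is the background of the counts that follow. Of 25 kept genes of DNA methylation and chromatin, 9 rose and 6 fell in Iso P80 against Iso P30. Smarca2, an ATPase of the SWI/SNF remodelling complex, rose by 0.39 ± 0.05 and Kat2b, a histone acetyltransferase, by 0.45 ± 0.07. Of 22 kept growth factor genes 5 rose and 4 fell (22.7% and 18.2%), near the shares over all genes. Inhba, a subunit of activin, rose by 0.76 ± 0.11 in isolation, and in social rearing it differed by 0.93. Vegfa, which drives vessel growth, fell by 0.40 (SE 0.06) and Igfbp5, a binding protein of insulin-like growth factors, by 0.43 (SE 0.06). Ntrk2, the receptor of brain-derived neurotrophic factor, rose by 0.31 ± 0.03, or 0.16 under quantile normalization.

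Of 12 kept genes of perineuronal nets and neural matrix 5 rose and 5 fell. Sparc, a matrix protein of glia and vessels, fell by 0.58 (SE 0.07), and Ptprz1, a receptor phosphatase that is also a matrix proteoglycan, rose by 0.41 ± 0.06. Of 17 kept cytoskeleton genes 7 rose and 5 fell, with 3 and 7 under quantile normalization. Ina, a neuronal intermediate filament, rose by 0.32 ± 0.03 on its brightest probe set but was called lower on another (-0.35 ± 0.10). Sptb, a spectrin, rose by 0.69 ± 0.14. Of 11 kept GABA receptor and chloride transport genes 3 rose and 2 fell, but none rose and 4 fell under quantile normalization. Of 17 kept glucocorticoid genes 6 rose and 3 fell, with 3 rising once the Gapdh ratio was a covariate. Of 12 kept receptor genes for monoamines, acetylcholine, opioids and cannabinoids 5 rose and 2 fell. Of 10 kept genes of cell division 1 rose and 1 fell, and of 6 kept markers of pericytes and vascular smooth muscle none rose and 1 fell.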
